A study of Oryctolagus cuniculus with 20 samples.

Results

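Condylar cartilage of the rabbit temporomandibular joint, the jaw joint, was compared between 4 weeks and 2 weeks after internal derangement, a condition in which the disc of the joint no longer sits normally on the condyle. The comparison takes the 4 arrays labelled as 4 weeks and the 4 labelled as 2 weeks, 8 of the 20 arrays of the study. All animals were male rabbits of 6 months. Untreated rabbits served as control (4 arrays), and the left joints of the other rabbits were made subject to derangement and taken after 1, 2, 4 or 8 weeks (4 arrays each). The design text assigns 16 rabbits at random to the treatment times, so each array was treated as a separate animal. The labels name no sham operation and do not say how the derangement was made. The 2 groups compared here share the derangement itself and differ in the time after it, and also in slide and scan day.

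The mandibular condyle is covered by a fibrous surface over a cartilage in which chondrocytes mature, enlarge and are replaced by bone. Maturing chondrocytes lay down type II collagen and aggrecan, and enlarged, hypertrophic chondrocytes make type X collagen. WNT ligands act on this sequence, and secreted antagonists such as the FRZB protein bind WNT outside the cell. In tissue taken whole from a joint, RNA of vessels, blood cells and adhering muscle is measured together with that of the cartilage, and fewer cells of a type cannot be told apart from less RNA per cell.

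Levels below are log2 intensities relative to the 75th percentile of the same array, so that a level of 0 is the signal of a fairly bright probe. The 2-week and 4-week arrays lay on different slides, 1 slide per group, and were scanned on different days. Control shared its scan day with the 2-week arrays, and the 1-week and 8-week arrays shared theirs with the 4-week arrays. Slide, scan day and time after derangement cannot be told apart in this comparison, and the levels of the other groups are therefore given beside the genes. Between 52.8% and 58.9% of spots were well above background on the 2-week arrays and between 58.5% and 61% on the 4-week arrays, and the 75th percentile of intensity from 303 to 473 and from 399 to 643. Correlations between arrays across probes, which are not independent replicates, were 0.961 to 0.984 within 2 weeks, 0.971 to 0.986 within 4 weeks and 0.947 to 0.979 between them. Signal of the defining cartilage gene COL2A1 was among the brightest on all 8 arrays, with levels of 6.79 to 10.26. The labelled tissue was thus represented on each array, although SOX9, a master regulator of chondrocytes, was above background on too few arrays to be tested.

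FRZB, the secreted WNT antagonist of cartilage, was the cartilage gene that rose from 2 to 4 weeks. CNMD, COL2A1 and ACAN, the other measured genes of the hyaline cartilage list, lay higher on every 4-week array than on any 2-week array without passing the test. Of all 681 named genes measured, 82 were separated in this way. FRZB was measured by 7 probes, and the sequences of 3 of them are shown because 6 of the 7 overlap within 132 bases of the transcript and so are not independent, while the last lies elsewhere. The 60-base probes of other cartilage genes described below follow, all in lower case and 5′ to 3′.
FRZB, first of the overlapping probes: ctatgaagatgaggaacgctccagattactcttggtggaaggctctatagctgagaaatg
FRZB, last of the overlapping probes: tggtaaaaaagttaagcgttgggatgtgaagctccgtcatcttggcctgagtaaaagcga
FRZB, separate probe: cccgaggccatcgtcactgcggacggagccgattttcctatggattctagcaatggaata
CNMD: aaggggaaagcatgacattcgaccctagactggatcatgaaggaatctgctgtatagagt
COL2A1: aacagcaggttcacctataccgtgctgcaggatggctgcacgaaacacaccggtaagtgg
COL10A1: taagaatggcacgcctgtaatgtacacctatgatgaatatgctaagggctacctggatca

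The level of FRZB was 3.73, 3.27, 3.49 and 2.52 on 2-week replicates 1 to 4 and 4.40, 5.46, 5.06 and 4.87 on 4-week replicates 1 to 4. Every 4-week array lay above every 2-week array. The mean rose from 3.25 ± 0.52 to 4.95 ± 0.44 (SD, n = 4 each), a log2 difference of 1.70 ± 0.34 (SE, limma adjusted p = 0.00658) or 3.24-fold. All 7 probes were called, with log2 differences from 1.53 to 1.85, and the separate probe gave the lowest of these. FRZB was above background on all 8 arrays, and it kept its call without any 1 array of the 8, with log2 differences from 1.45 to 1.88 and adjusted p up to 0.0318. The mean level was 3.63 in control, 4.93 at 1 week and 3.57 at 8 weeks. On the scan day of the 4-week arrays, FRZB was thus high at 1 and 4 weeks, while the 8-week mean lay near that of control on the other day. The difference of 8 minus 4 weeks, which uses the same 4-week arrays, was -1.38 (adjusted p = 0.0868) and that of 4 minus 1 week 0.02 (adjusted p = 0.988).

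CNMD encodes chondromodulin, a cartilage protein that keeps vessels out. Its level was 0.86, 2.18, 2.59 and 1.52 on the 2-week arrays and 3.96, 6.27, 3.84 and 4.04 on the 4-week arrays, so the groups did not overlap, and replicate 2 of the 4-week group stood highest. The log2 difference was 2.74 ± 0.83 (SE, limma adjusted p = 0.0741), from 1.79 ± 0.76 to 4.53 ± 1.17 (SD, n = 4 each). A fit to the 8 arrays alone, or to all groups but 1 week, put it past the threshold (adjusted p = 0.0436 and 0.0383), while the adjusted p rose to 0.231 without single arrays and to 0.51 over all alternatives. COL2A1, the chain of type II collagen, was at 7.98, 8.11, 8.24 and 6.79 on the 2-week arrays and at 8.88, 10.26, 8.86 and 9.07 on the 4-week arrays. Its difference of 1.49 ± 0.60 did not pass the test (adjusted p = 0.184), and its 3 probes gave 1.08 to 1.98. ACAN, the core protein of aggrecan, was dimmer, at -3.0 to -2.33 on the 2-week and -2.01 to -1.08 on the 4-week arrays, with a difference of 0.96 ± 0.38 (adjusted p = 0.174). The 4 measured members of the hyaline cartilage list were all higher at 4 weeks, with 1 called and a median log2 difference of 1.59, against -0.02 over all 681 named genes measured, of which 328 lay above 0. Its members were picked with earlier results of these data known, so the median is a description.

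Genes of hypertrophic cartilage did not pass the test. COL10A1, the chain of type X collagen, stood at 5.77, 6.07, 6.24 and 4.78 at 2 weeks and at 6.90, 8.91, 7.37 and 7.20 at 4 weeks. Its arrays did not overlap, all 6 of its probes had the same sign, and the log2 difference was 1.88 ± 0.87 (SE, limma adjusted p = 0.247). Most of these probes overlap almost wholly and so are not independent. PTH1R, the receptor through which parathyroid hormone-related protein delays hypertrophy, was at 4.31 to 4.85 and 4.92 to 6.16 without overlap, a difference of 0.81 ± 0.39 (adjusted p = 0.265). IHH, the hedgehog ligand of prehypertrophic chondrocytes, differed by 0.88 ± 0.54 (adjusted p = 0.396) with overlapping arrays. The remaining members were closer to 0: ENPP1 at 0.59, RUNX2 at 0.28, SPP1 at -0.17 and MMP13, a collagenase, at -0.28. Of the 7 measured, 0 were called and 5 lay above 0, with a median of 0.59.

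APOD, SLC2A1 and CCN2 also lay higher on every 4-week array than on any 2-week array, a separation that 82 of all 681 named genes showed. APOD, a secreted lipid-binding apolipoprotein, was at 2.68, 3.05, 2.91 and 1.43 on the 2-week arrays and at 4.02, 5.80, 4.54 and 4.32 on the 4-week arrays. The difference of 2.15 ± 0.61 (SE) just missed the threshold (limma adjusted p = 0.0561). It passed in a fit to the 8 arrays alone and in one without the 1-week group (adjusted p = 0.0423 and 0.0272), and its adjusted p reached 0.184 without single arrays and 0.51 over all alternatives. SLC2A1, the basal glucose transporter GLUT1, differed by 1.18 ± 0.43 (adjusted p = 0.137) and CCN2, a matricellular growth factor of hypertrophic cartilage, by 1.11 ± 0.43 (adjusted p = 0.162). At 8 weeks the mean level of CNMD was 1.90, of COL2A1 7.95, of COL10A1 5.38, of APOD 2.22, of SLC2A1 0.45 and of CCN2 -1.10. Each of these 8-week means lay below that gene's 4-week mean on the same scan day, and the 8 minus 4 week differences, from -2.63 to -1.09, did not pass the test (adjusted p = 0.0911 to 0.362). Control means were 2.14, 8.32, 5.80, 2.86, 1.53 and -1.21 in the same order, and the 1-week means 4.44, 9.70, 8.06, 4.35, 2.01 and -0.03.

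**Figure D1:**
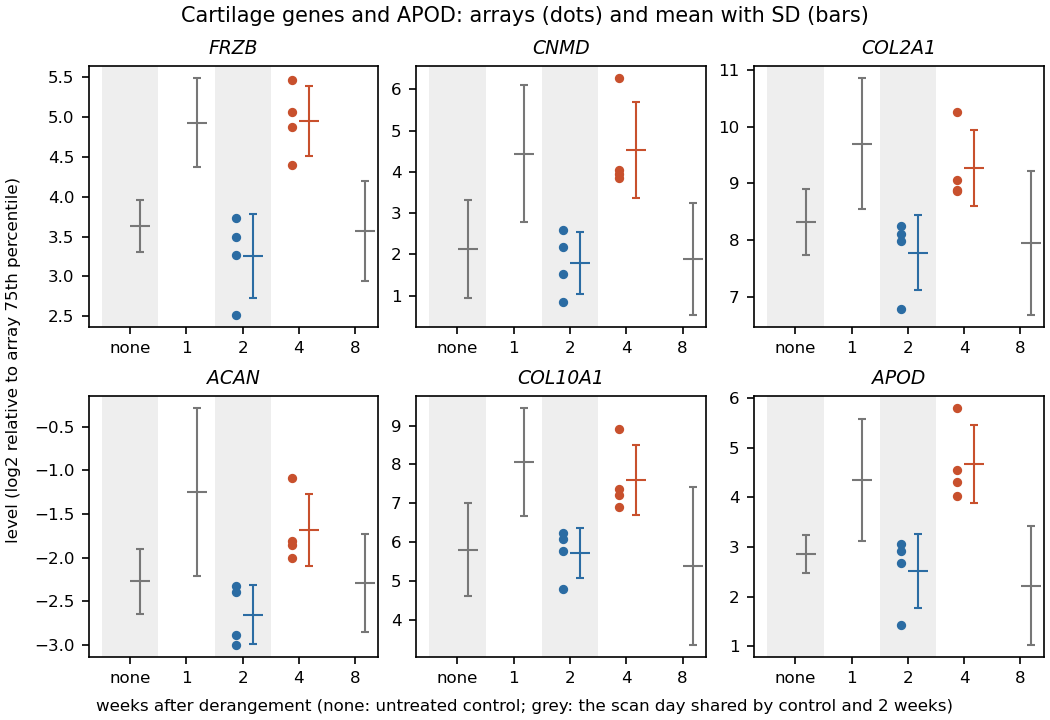
Level (log2 intensity minus the array's 75th percentile, vertical axis) of FRZB, CNMD, COL2A1, ACAN, COL10A1 and APOD in the 5 groups (horizontal axis). Dots are the 2-week and 4-week arrays, bars are group means with SD over 4 arrays, and grey marks the scan day shared by control and 2 weeks. For FRZB the 4-week dots, 4.40 to 5.46, all lie above the 2-week dots, 2.52 to 3.73, and the 8-week mean returns to 3.57.

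In total 25319 of 43603 probes were bright enough for testing, above background on at least 3 of 4 arrays of either group. Of these, 1045 (4.13%) were called at an adjusted p under 0.05, 791 (3.12%) higher and 254 (1%) lower at 4 weeks. Arrays of the groups did not overlap for 15.1% of the probes. Among the 681 named genes, 42 (6.17%) were called, 34 (4.99%) higher and 8 (1.17%) lower, and 18.6% did not overlap. A change of at least 2-fold was reached by 492 of the probes called higher and by 14 of those called lower, and one of at least 4-fold by 109 and 4.

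The probes called higher were mostly dim ones. Their median level was -3.48 at 2 weeks and -2.27 at 4 weeks, and 338 of the 791 were above background on all 8 arrays. On none of the 2-week arrays were 253 of them above background. The probes called lower were bright, with median levels of 3.89 and 3.44, and 242 of 254 were above background throughout. All 8 named genes that fell lay above the 75th percentile in both groups, while 33 of the 34 named genes that rose lay below it at 4 weeks, FRZB being the exception. In all, 268 probes, 20 of them named, exceeded background on every 4-week array and on no 2-week array, and 2 unnamed probes did the reverse. The 2-week arrays also carried more spots with the small positive value that the scanner software gives to signals at background, 11158 to 13375 per array against 9861 to 10807, and the part of this in the dim rises was not tested.

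**Figure D2:**
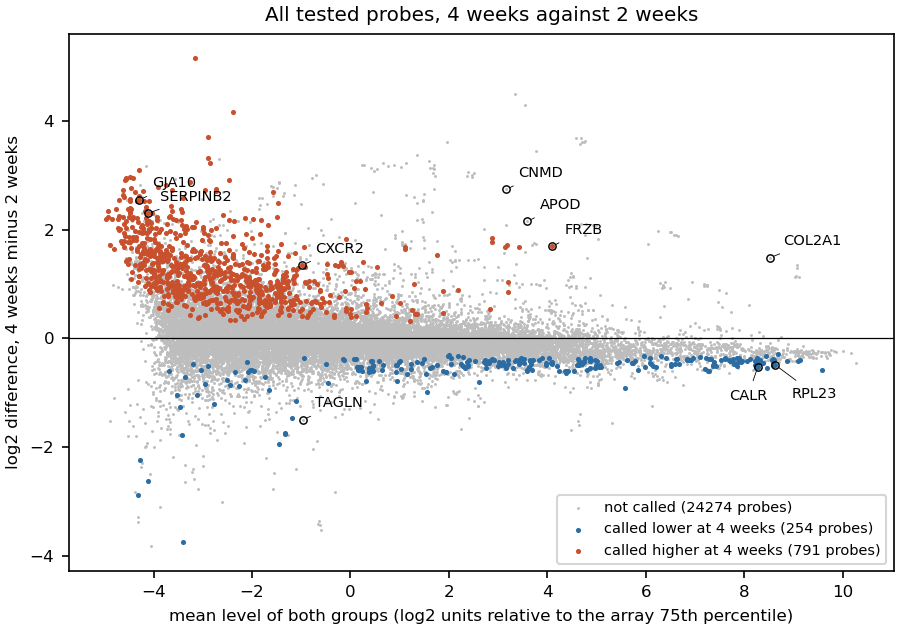
Log2 difference of 4 weeks minus 2 weeks (vertical axis) against mean level over the 8 arrays (horizontal axis, log2 intensity minus the array's 75th percentile) for the 25319 probes tested, with called probes in colour. The 791 probes called higher lie mostly at low levels, and the 254 called lower at high levels.

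Levels of the called probes in the other groups followed the scan day. The 791 probes called higher had median levels of -3.50 in control and -3.48 at 2 weeks, which were scanned together, and of -2.13, -2.27 and -2.37 at 1, 4 and 8 weeks, scanned together on the other day. For 751 of them (94.9%) the means of the 1-, 4- and 8-week groups all exceeded those of both control and 2 weeks. The same was so for 46.1% of all 12062 tested probes that were higher at 4 weeks. Of the 254 probes called lower, 219 (86.2%) had the 1-, 4- and 8-week means all below both others, against 39.6% of all 13257 tested probes that were lower. Of the 34 named genes that rose, 33 split the groups by scan day in this way, among them LEP, HTR3A, SLC29A2, S1PR1, CXCL8 and TNF. FRZB was the exception, with its 8-week mean of 3.57 below its control mean of 3.63. Of the 8 that fell, 7 did, and PCK2, mitochondrial phosphoenolpyruvate carboxykinase, did not. Among the 7, CALR did so by very little, with means of 8.37 both in control and at 1 week. In the same fit, 54 probes (0.213%) were called between 2 weeks and control and 155 (0.612%) between 8 and 4 weeks, pairs that each lie within 1 scan day, and 289 (1.14%) between 4 weeks and 1 week. Between 4 weeks and control, on different days, 2028 (8.01%) were called. These comparisons share arrays with each other and with that of 4 against 2 weeks.

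Of the 34 genes that rose, 9 were not above background on any 2-week array. GJA10, a connexin of gap junctions, was at -5.91, -5.47, -5.31 and -5.56 on the 2-week arrays, none of them above background, and at -3.10, -3.05, -3.02 and -2.89 on the 4-week arrays. Its fitted log2 difference was 2.55 (limma adjusted p = 1.02e-07), and on the deposited values it was at least 1.70-fold higher at 4 weeks. SERPINB2, the plasminogen activator inhibitor of macrophages and keratinocytes, was at -4.26, -5.88, -6.33 and -4.62, none above background, and then at -3.23, -2.91, -3.14 and -2.62. At 4 weeks it was higher by at least 1.75-fold (adjusted p = 0.00116), the 1 called of 25 protease genes, beside 6.17% of all named genes. Such a bound sets the 4-week mean against the lowest signal that counts as above background on each 2-week array. Where the probe's own level is higher, that level is used. An adjusted p beside a bound, here and below, is that of the fitted difference. With normexp, another background correction, the differences were 0.027 for SERPINB2, -0.021 for GJA10, -0.18 for SLC12A3 and -0.15 for CASP14. They were -0.44 for KCNK3 and -0.42 for SLC47A2, which are bounded in later paragraphs. The bounds therefore hold for the deposited background correction alone. SLC12A3, the thiazide-sensitive salt transporter of kidney, was at -4.54 to -4.38 at 2 weeks and -3.23 to -2.71 at 4 weeks, at least 1.80-fold higher (adjusted p = 5.03e-05). For CASP14, which cleaves proteins in the cornifying skin surface, the bound was 1.38-fold (adjusted p = 0.00385). The bound was 1.38-fold for TH, the first enzyme of catecholamine synthesis, which was above background on 3 of the 4-week arrays (adjusted p = 0.0217), and 1.4-fold for CDH16, a kidney cadherin (0.00731).

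The mean levels of these genes in the other groups were close to those of the group with the same scan day. GJA10 stood at -5.53 in control, -2.52 at 1 week and -3.08 at 8 weeks. SERPINB2 stood at -4.91, -2.46 and -2.76, and SLC12A3 at -4.84, -2.51 and -3.02, in the same order. The probes of GJA10 and SERPINB2 are printed because these had the largest fitted rises among called genes whose arrays did not overlap.
GJA10: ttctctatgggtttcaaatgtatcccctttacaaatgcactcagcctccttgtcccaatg
SERPINB2: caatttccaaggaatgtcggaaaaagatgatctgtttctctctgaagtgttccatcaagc

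A hormone and an apolipoprotein of lipid metabolism rose from low levels. LEP, the adipocyte hormone leptin, was at -3.48, -3.05, -4.97 and -4.27 on the 2-week arrays, 2 of them above background, and at -2.49, -1.13, -2.10 and -2.30 on the 4-week arrays. The arrays did not overlap, and the fitted log2 difference was 1.94 ± 0.35 (SE, limma adjusted p = 0.00331, and 0.0551 in a fit to the 8 arrays alone). APOC4, a liver apolipoprotein, was at -4.08 to -3.53 at 2 weeks, above background on 1 array, and at -2.16 to -1.39 at 4 weeks, a fitted difference of 2.00 ± 0.33 (adjusted p = 0.0012). These were the 2 called of 20 measured genes of lipid handling and adipokines, whose median difference was 0.19, beside 4.99% of all named genes that rose. PPARA, a nuclear receptor of fatty acid oxidation, was not called by its brightest probe (adjusted p = 0.22), but its other 2 probes, above background on none of the 2-week arrays, were called higher (adjusted p = 5.27e-05 and 0.00849), as was the mean of its probes (adjusted p = 0.00113). CGA, the alpha chain of pituitary glycoprotein hormones, was above background on 1 of the 2-week arrays and rose by 1.52 ± 0.25 (adjusted p = 0.0015). PRLR, the prolactin receptor, was above background on all 8 arrays and rose by 0.87 ± 0.16 (adjusted p = 0.00339), from -3.33 to -3.05 at 2 weeks to -2.41 to -2.21 at 4 weeks. It was the 1 called of 11 growth factors and receptors, a list with a median of -0.59, beside 6.17% called of all named genes.

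Of 44 measured ion channel genes, 5 rose and 0 fell, beside 4.99% of all named genes that rose. HTR3A, a serotonin-gated cation channel subunit, was above background on all 8 arrays, at -2.06, -1.79, -2.05 and -1.95 at 2 weeks and at -1.03, -0.41, -0.94 and -0.82 at 4 weeks. The arrays did not overlap, and the difference was 1.16 ± 0.19 (SE, limma adjusted p = 0.00107) or 2.24-fold. SCNN1A, the alpha subunit of the epithelial sodium channel, rose by 0.91 ± 0.21 (adjusted p = 0.0197), with all 5 of its probes of the same sign. KCNJ11, the pore of the ATP-sensitive potassium channel, rose by 1.35 ± 0.19 (adjusted p = 0.000267) and CACNA1E, a calcium channel pore, by 1.61 ± 0.33 (adjusted p = 0.0081). Both were above background on 1 of the 2-week arrays, so their sizes are fitted values. KCNK3, an acid-sensitive potassium channel, was at least 1.07-fold higher (adjusted p = 0.00238). In all, 30 of the 44 lay above 0, with a median of 0.20. Background correction by normexp turned that median to -0.31.

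Of 42 measured carriers and pumps, 4 rose and 1 fell, with a median of 0.03. Over all named genes, 4.99% rose and 1.17% fell. SLC29A2, an equilibrative nucleoside transporter, was above background on all arrays, at -3.03 to -2.19 and then -1.72 to -1.46, and rose by 0.99 ± 0.17 (SE, limma adjusted p = 0.00183). SLC47A2, a drug and toxin extruder of kidney, stood at least 1.23-fold above its 2-week level (adjusted p = 0.00145). SLC22A6, the organic anion transporter of kidney, rose by 0.50 (adjusted p = 0.0189). Receptors of hormones and transmitters held 3 called of 17, all higher, beside 4.99% of all named genes that rose. S1PR1, the sphingosine 1-phosphate receptor of endothelium and lymphocytes, rose by 0.56 ± 0.11 (adjusted p = 0.00466), from -2.33 to -2.04 at 2 weeks to -1.69 to -1.54 at 4 weeks. NPY6R, a neuropeptide Y receptor, rose by 1.16 ± 0.21 (adjusted p = 0.00354). MLNR, the motilin receptor, was at -5.92, -5.34, -5.75 and -2.20 at 2 weeks and at -2.60 to -2.30 at 4 weeks, so that replicate 4 of the 2-week group overlapped the 4-week arrays (adjusted p = 0.0293). PRKG1, the cGMP-dependent kinase that relaxes smooth muscle, rose by 1.28 ± 0.24 (adjusted p = 0.00411). MYH6, the alpha myosin of heart, rose by 1.28 ± 0.34 (adjusted p = 0.04), but another of its probes gave -1.26.

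The genes that fell were abundant and changed by less than 1.5-fold. CALR, the calcium-binding chaperone calreticulin of the endoplasmic reticulum, was at 8.57, 8.59, 8.38 and 8.60 at 2 weeks and at 8.21, 7.94, 7.85 and 8.06 at 4 weeks. No 4-week array reached the lowest 2-week array. All 5 probes of CALR were called, but these overlap almost wholly and so are not independent. The log2 difference was -0.52 ± 0.12 (SE, limma adjusted p = 0.0169), which is 0.699 times the 2-week level. DHRS4, a peroxisomal reductase of retinal, was at 4.50, 4.61, 4.29 and 4.39 and then at 4.14, 3.74, 3.88 and 3.97, a difference of -0.51 ± 0.11 (adjusted p = 0.0141). All 5 probes of DHRS4 were called, and these likewise overlap almost wholly. RPL23, a protein of the large ribosomal subunit, was at 8.68, 8.84, 8.76 and 9.17 and then at 8.51, 8.46, 8.32 and 8.23, a difference of -0.48 ± 0.12 (adjusted p = 0.0257), with all 3 probes called. Arrays of DHRS4 and of RPL23 did not overlap between the groups.

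The other 5 falls had higher adjusted p. SLC7A8, a transporter of large neutral amino acids, changed by -0.57 ± 0.15 (SE, limma adjusted p = 0.0424) with 4 of 5 probes called, and PCK2 by -0.43 ± 0.11 (adjusted p = 0.0377). EEF1B2, an exchange factor of translation elongation, changed by -0.39 ± 0.11 (adjusted p = 0.0459) with 2 of 5 probes called. EIF2AK1, the haem-regulated kinase that slows translation initiation, changed by -0.37 ± 0.10 (adjusted p = 0.0483) with 3 of 7 probes called and 1 probe at 0.44. CSNK1A1, a casein kinase whose arrays overlapped, was the remaining fall (-0.42, adjusted p = 0.0477), with another probe at 0.11. CALR was the 1 called of 7 chaperone genes, which had a median of -0.18 and 2 members above 0, beside 6.17% called of all named genes.

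Of the 31 called genes that the naming rule picks and that are reported here, 19 kept their call without each of the 8 arrays in turn. The 12 that lost it were the 7 falls CALR, DHRS4, RPL23, SLC7A8, PCK2, EEF1B2 and EIF2AK1, and the rises CXCL8, MLNR, MYH6, SLC22A6 and TNF. In a fit to the 8 arrays alone, 22 of the 31 kept their call, and LEP, MLNR, TNF, DHRS4, RPL23, SLC7A8, PCK2, EEF1B2 and EIF2AK1 lost it (adjusted p = 0.0551 to 0.126). A further 10 called genes fall outside that rule, 9 of them higher by 0.45 to 1.15. With quantile normalization 27 named genes were called, all higher, and with normexp background correction 0 named genes and 5 probes were called in limma, with 86 named genes and 2810 probes at an unadjusted p under 0.05. FRZB differed by 1.98 under normexp (adjusted p = 0.222), and GJA10 by -0.02.

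**Figure D3:**
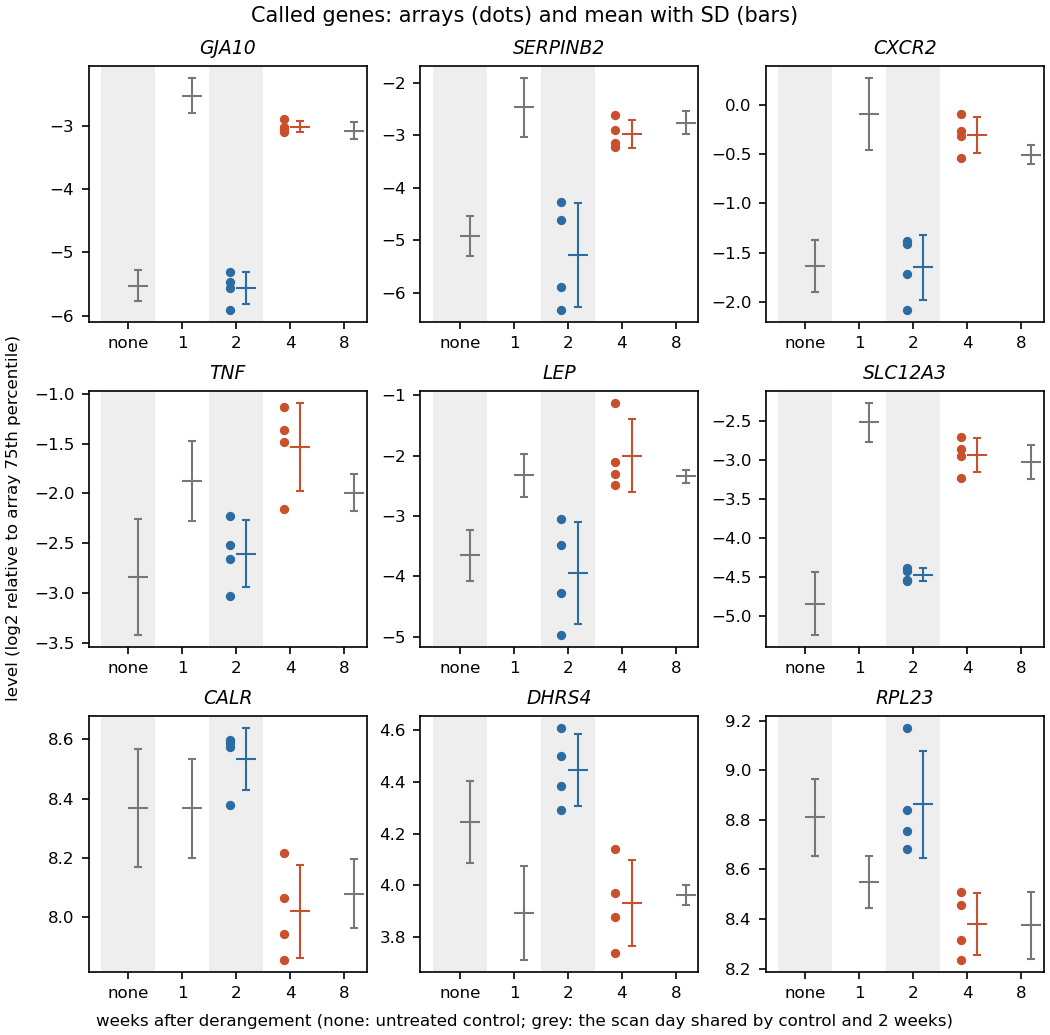
Level (log2 intensity minus the array's 75th percentile, vertical axis) of 9 called genes by group (horizontal axis), with dots for the 2-week and 4-week arrays, means with SD over 4 arrays for all 5 groups, and grey for the scan day shared by control and 2 weeks. GJA10 stands near -5.53 and -5.56 in the grey groups and at -2.52, -3.01 and -3.08 in the others, and CALR at 8.37 and 8.53 against 8.37, 8.02 and 8.08.

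Of 26 measured genes of inflammation (cytokines, chemokines and their receptors, prostaglandin enzymes and receptors, Toll-like receptors, NOS2 and SAA3), 3 rose and 0 fell: CXCR2, CXCL8 and TNF. Over all named genes, 4.99% rose. CXCR2, the neutrophil receptor for CXCL8, was above background on all 8 arrays, at -2.08, -1.38, -1.42 and -1.72 at 2 weeks and at -0.26, -0.32, -0.54 and -0.09 at 4 weeks. The arrays were far apart, and the mean rose from -1.65 ± 0.33 to -0.30 ± 0.18 (SD, n = 4 each), a log2 difference of 1.35 ± 0.19 (SE, limma adjusted p = 0.000271) or 2.55-fold. CXCR2 stood at -1.64 in control, -0.09 at 1 week and -0.50 at 8 weeks. CXCL8, the neutrophil chemoattractant also called interleukin 8, was at -2.5, -1.70, -1.78 and -1.91 and then at -1.06, -1.03, -1.18 and -0.71, a difference of 0.98 ± 0.25 (adjusted p = 0.0344). Probes that overlap this one almost wholly, and so are not independent of it, gave 1.26 (adjusted p = 0.0134) and 1.29 (0.081). The remaining probe, elsewhere in the transcript, gave -0.57 (0.578). It was above background on 3 of the 2-week and 2 of the 4-week arrays. The probes of CXCR2 and of CXCL8 that gave these values are shown because they measure a ligand and its receptor.
CXCR2: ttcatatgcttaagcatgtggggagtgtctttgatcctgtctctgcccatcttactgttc
CXCL8: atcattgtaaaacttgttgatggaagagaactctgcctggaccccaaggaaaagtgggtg

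TNF, the inflammatory cytokine, was at -3.03, -2.65, -2.51 and -2.23 at 2 weeks and at -1.36, -1.13, -1.48 and -2.16 at 4 weeks. Replicate 4 of the 4-week group lay just above replicate 4 of the 2-week group, and the difference was 1.07 ± 0.28 (SE, limma adjusted p = 0.036). The other 2 probes of TNF gave 0.38 and 0.28 and were not called. IL1B, the interleukin made with TNF by activated macrophages, differed by 0.93 ± 0.66 (adjusted p = 0.47), and CCL2, the monocyte chemokine, by -0.18 (adjusted p = 0.851). The list's median was -0.15, with 9 of 26 members above 0, so the called rises were not shared by most of its members.

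CXCR2 is also a member of the neutrophil marker list, several of whose other genes varied widely between animals. S100A12, a calgranulin, was at -2.10, -1.72, 0.84 and 3.88 on the 2-week arrays and at 2.62, 0.63, 4.73 and 4.86 on the 4-week arrays. NP4, a neutrophil defensin of rabbits, was at -3.56, -3.65, 5.02 and 6.56 and then at 5.42, 1.29, 7.94 and 7.67. Replicates 1 and 2 of the 2-week group were low and replicates 3 and 4 high, and within the 4-week group replicate 2 was low, so that the groups overlapped. The log2 difference was 2.98 ± 1.36 (SE) for S100A12 and 4.49 ± 2.31 for NP4 (limma adjusted p = 0.241 and 0.303). S100A8, CAMP, a cathelicidin, BPI, which binds endotoxin, and NP3A, another defensin, differed by 3.04, 3.22, 2.67 and 2.75, each with overlap and without a call. S100A9, which forms a dimer with S100A8, differed by 0.98 ± 0.33 (adjusted p = 0.105). CXCR1, the second receptor for CXCL8, differed by 0.27 ± 0.21 and MMP9, a gelatinase also of osteoclasts, by -0.11 ± 0.21. The SE of these 2 genes was thus small, like that of CXCR2.

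In all, 9 of the 10 measured neutrophil markers lay above 0 and 1 was called, with a median of 2.71. Over all 681 named genes, 328 lay above 0 and 6.17% were called. Leaving out single arrays moved that median between 1.64 and 3.93. The median level of the list on each array was -2.09, -1.71, 2.00 and 3.87 at 2 weeks and 2.62, 0.08, 5.01 and 4.63 at 4 weeks. At 2 weeks CXCR2 ran from -2.08 on replicate 1, where the list's median was also lowest, to -1.38 on replicate 2, where that median was -1.71. The part of neutrophil RNA in the rise of CXCR2 was not tested.

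**Figure D4:**
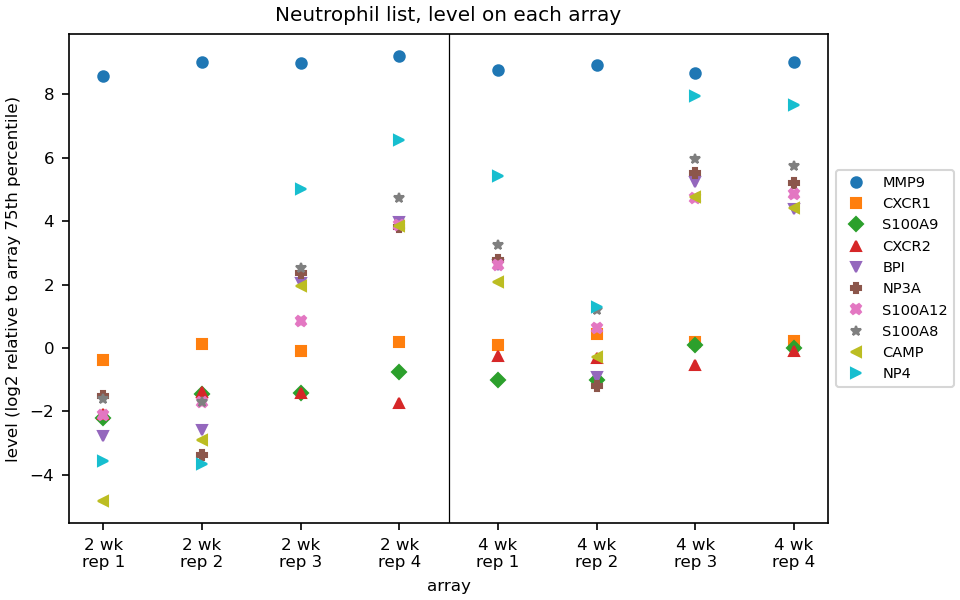
Level (log2 intensity minus the array's 75th percentile, vertical axis) of the 10 measured neutrophil markers (symbols) on each 2-week and 4-week array (horizontal axis). S100A12 and NP4 span several log2 units within each group, S100A12 from -2.10 to 3.88 at 2 weeks, while CXCR2 separates the groups at -2.08 to -1.38 against -0.54 to -0.09.

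Smooth muscle and endothelial genes lay lower at 4 weeks without a call. TAGLN, the actin-binding protein transgelin of smooth muscle, was at 0.51, -0.54, 0.04 and -0.89 at 2 weeks and at -0.60, -2.84, -2.0 and -1.43 at 4 weeks, and ACTA2, smooth muscle actin, at 1.56, 0.18, 0.08 and 0.25 and then at 0.52, -1.68, -0.74 and -1.60. Arrays of both genes overlapped, because replicate 1 of the 4-week group was high. The differences were -1.50 ± 0.45 and -1.39 ± 0.54 (SE, limma adjusted p = 0.0731 and 0.161), and without that array both passed the threshold (adjusted p = 0.0209 and 0.047). Without other single arrays the adjusted p rose to 0.234 for TAGLN and 0.383 for ACTA2. The log2 differences then ran from -1.87 to -1.12 for TAGLN and from -1.86 to -1.04 for ACTA2 over all single omissions. Replicate 1 of the 2-week group was also high in ACTA2. All 4 measured smooth muscle genes lay below 0, with a median of -0.99. All 6 endothelial genes did too, with a median of -0.46, although EDN1 was only at -0.01. Of all 681 named genes, 328 lay above 0. KDR, a receptor for vascular endothelial growth factor, differed by -0.59 ± 0.30 (adjusted p = 0.3) without overlap.

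Single arrays were high or low in several lists at once. Replicate 2 of the 4-week group had the highest 4-week level of FRZB, CNMD, COL2A1, COL10A1 and APOD, and the lowest of TAGLN, ACTA2, S100A12 and NP4. Replicate 4 of the 2-week group had the lowest level of FRZB, COL2A1, COL10A1 and APOD among the 2-week arrays and the highest of S100A12 and NP4. The part of tissue composition in the differences was not tested.

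Most members of the remaining lists were not called, beside 6.17% called of all named genes. WNT and hedgehog genes had a median of -0.01 with FRZB the 1 called of 9. Fibrous matrix genes had 0 called of 16 and a median of -0.06, running from VCAN, the proteoglycan versican, at -1.10 to CCN2 at 1.11, with LUM, lumican, at -0.58. The protease list had a median of -0.11, with MMP3, stromelysin 1, at -0.48. TGF-beta and BMP genes had 0 called of 8 and a median of -0.03. Glucose transport and glycolysis genes had 0 called of 13 and a median of 0.15, and drug and xenobiotic metabolism genes 0 of 19 and 0.10. Immediate early and cell cycle genes had 0 called of 8 and a median of -0.16, and cyclin A2, CCNA2, differed by -0.57 without overlap (limma adjusted p = 0.117). Complement and antimicrobial genes had 0 called of 9 and a median of 0.35, and shared neutrophil members with the marker list. IGF1, the growth factor of cartilage growth, differed by -1.02 (adjusted p = 0.168).

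Markers of other cell types that a condyle sample could hold gave few calls, beside 6.17% called of all named genes. Skeletal muscle genes had 0 called of 11 and a median of -0.13, and TNNC2, fast troponin C, was at -3.26 to -0.05 at 2 weeks and -3.36 to -2.64 at 4 weeks. Macrophage markers had 0 called of 4 and a median of -0.53, and osteoclast markers 0 of 4 and -0.11. Of the 2 red cell genes, HBA, alpha globin, was at 3.78 to 7.46 and 6.51 to 7.18 and differed by 0.97 (limma adjusted p = 0.329). Of the lymphocyte markers, CTLA4 alone was measured, while CD3E, CD4, CD5, CD28 and RAG2 were too dim to keep. Synovial lining genes had 0 called of 2, adipocyte genes 1 of 2, which was LEP, and keratinizing epithelium genes 1 of 3, which was CASP14.

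**Figure D5:**
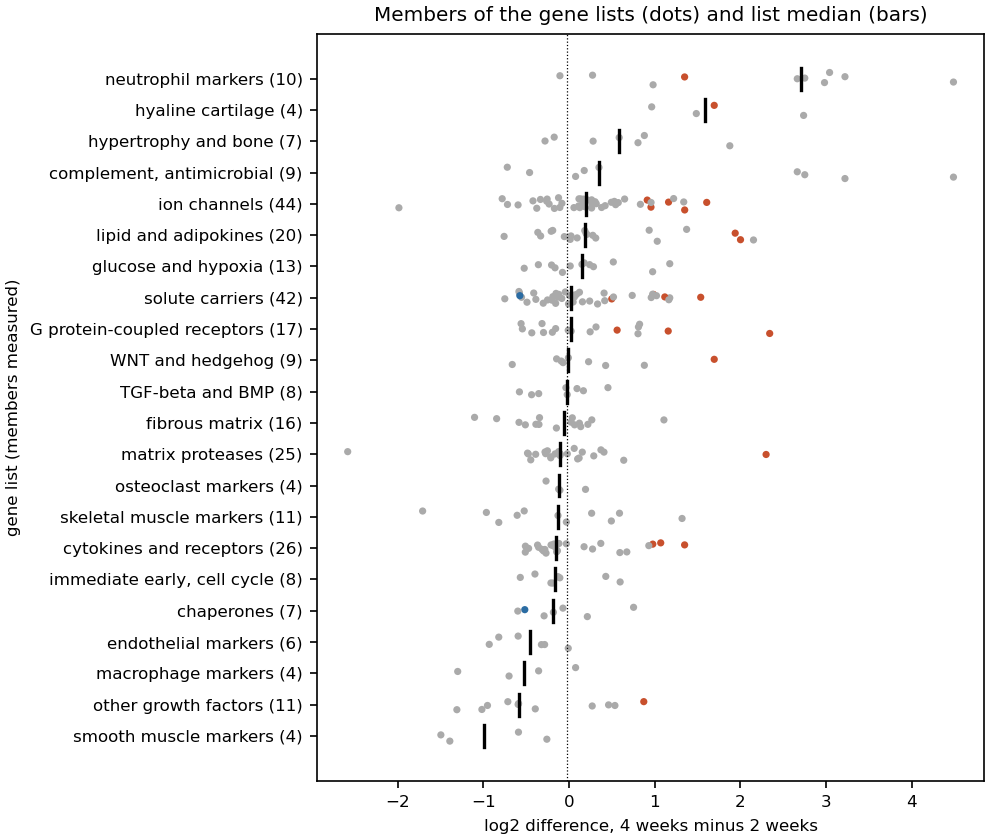
Log2 difference of 4 weeks minus 2 weeks (horizontal axis) of each measured member (dots) of 22 gene lists (vertical axis), with bars at the list medians and a dotted line at the median of all named genes, -0.02. The neutrophil list (median 2.71) and the hyaline cartilage list (1.59) lie farthest to the right and the smooth muscle list (-0.99) farthest to the left.

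Probes for immunoglobulin sequences, a family without gene names here that was picked out after its values were seen, had 18 called of 112 tested (16.1%), all of them higher, beside 4.13% called over all probes. The 18 had fitted log2 differences of 0.79 to 3.10, their arrays did not overlap, and 1 of them was above background on all 8 arrays. Their median level was -4.44 at 2 weeks and -3.07 at 4 weeks, and probes of this family share sequence. The median difference over the 112 was 0.38, and -0.35 with normexp. Among unnamed probes above background on all 8 arrays, the largest called rises were those of ENSOCUT00000015206, by 2.24 ± 0.34 (SE, limma adjusted p = 0.000688), and EB373374, by 2.17 ± 0.50. The largest called falls were those of ENSOCUT00000014605 (-1.76 ± 0.48) and ENSOCUT00000005172 (-1.74 ± 0.48).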

How the data were processed

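Total RNA of condylar cartilage was extracted with Trizol and labelled with Cy3 for 1-colour Agilent arrays, per the labels' protocols. The deposited scanner values are intensity, on a linear scale, from Agilent Feature Extraction 10.7.1.1, per the file headers and the submitters' processing notes. Per the file headers that software subtracted background and gave signals at background a small positive value. The deposited value table, with column medians from 28.3 to 90.0, was used as an alternative. It holds the same intensity values for the control, 1-week, 2-week and 4-week arrays. Each 8-week column differed from the array of its label, by a median absolute log2 difference of 0.224 to 0.572, and lay closest to another 8-week array.

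Outlier spots were left out, 14 to 60 per 2-week array and 18 to 38 per 4-week array, no spot was saturated, and repeated spots were averaged. The log2 of each deposited intensity, minus the array's 75th percentile, was fitted with limma 3.58.1 (R 4.3.3, lmFit and eBayes) as 5 group means over all 20 arrays, which share 1 spread estimate per probe. The median SD was 0.228 at 2 weeks, 0.204 at 4 weeks and 0.318 at 1 week. P-values are two-sided, adjusted by Benjamini-Hochberg over the 25319 kept probes, and a call is an adjusted p under 0.05. Precision is limited by having 4 arrays per group.

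Names came from the files and a RefSeq table of rabbit genes: 3068 probes (7.04%) of 1017 genes, 1869 by accession, 639 by description, 247 by the file's gene name, 165 by a shared Ensembl transcript, 137 through LOC numbers, and 11 under the name in the files. Each gene is represented by its brightest kept probe on average. Probe sequences are those of the deposited files. No genome was used here, so no positions are given. The members and lists were chosen with earlier results of these data known. Genes named are the 15 largest rises and falls among called genes without overlap, up to 4 members of lowest p per list and a fixed panel. Others named were chosen after their values were seen, and 1 gene that the rule picks is not reported here. The fit was tested on simulated data. Alternatives were other scalings, normexp background correction, filters, fits and arrays left out.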

Additional observations from a re-analysis of the deposited data

Results flagged for a closer look

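For 115 named genes the 2-week and the 4-week group were each checked for a single array standing far from the other 3, 230 groups in all. In 17 groups the gap from the farthest array to its neighbour exceeded 0.829 of the group's range, Dixon's limit for 4 samples. Chance flags about 1 in 20 groups.

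Replicate 2 of the 4-week group stood apart in 5 genes, at 6.27 for CNMD, 10.26 for COL2A1, 2.45 for ENPP1, -2.41 for HAS2, a hyaluronan synthase, and 3.65 for TIMP3, an inhibitor of matrix proteases, each above the other 3 arrays. Replicate 4 of the 2-week group stood apart in CHRD, a BMP antagonist, at -2.31, in CYP2A11, a cytochrome P450, at -2.94, in MLNR at -2.20 and in UPK1B, a uroplakin, at -2.92, again above the others. Replicate 1 of the 2-week group stood apart in ACTA2 at 1.56, in KCNJ11 at -4.04 and in THBD, the endothelial thrombin receptor, at 2.09. Replicate 1 of the 4-week group stood apart in KCNJ11 at -2.12, in PPIA, a cyclophilin, at 6.35 and in THBD at 1.99. CALR was low at 8.38 on replicate 3 of the 2-week group, and CYP2A11 low at -4.97 on replicate 4 of the 4-week group.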

How the results depend on the processing

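Of the 1045 probes and 42 named genes called, the counts were 686 and 27 with quantile normalization (592 probes higher and 94 lower), 5 and 0 with normexp at an offset of 50, and 371 and 15 among probes above background on all 8 arrays. Without the 1-week group in the fit they were 1872 and 71. The cause of the loss under normexp was not tested. Normexp with an offset of 1, chosen after seeing the data, called 0 and 0 in limma (2049 and 61 at an unadjusted p under 0.05). Leaving out single arrays gave 592 to 1379 probes and 26 to 55 genes. The probe count was 592 without 4-week replicate 2 and 596 without 4-week replicate 4, and the gene count 27 without 2-week replicate 1 and 26 without 4-week replicate 2, 3 or 4. Median centring, no filter, the 8 arrays alone, the value table, and trend with robust eBayes kept both counts within 1.5 times, as did the mean of all probes for genes. The calls were not all the same: the fit to the 8 arrays alone shared 645 of its 970 probes and 30 of its 45 genes with the reported calls, and that with no filter 682 of 964 and 29 of 29. Of the 31 reported genes, 9 lost their call in the former and 8 in the latter.

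Signs turned with normexp at 50 for GJA10 (-0.021), CASP14 (-0.15), SLC12A3 (-0.18), KCNJ11 (-0.046), PRLR (-0.086), KCNK3 (-0.44), SLC47A2 (-0.42), SLC22A6 (-0.056), EEF1B2 (0.032) and EIF2AK1 (0.030), and at an offset of 1 for KCNK3 (-0.29), SLC47A2 (-0.29), EEF1B2 (0.020) and EIF2AK1 (0.019). All 31 called genes that the naming rule picks and that are reported kept their calls with median centring, the value table, trend with robust eBayes, and without the 1-week group.

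Deviations of same-numbered arrays had correlations of 0.005 to 0.333, and 2 of 4 were best with their own number. These values cannot exclude a pairing, but the labels name none, so the numbers were not read as one. With the replicate number as a block, 517 probes and 24 genes were called, and FRZB had an adjusted p of 0.0611. Slide or scan day could not be fitted as a block, because each group lies on 1 slide and 1 day.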
